A study of Mus musculus with 7 samples.

Results

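Mitochondria make most of the ATP of a cell by oxidative phosphorylation, and the transcripts of its protein complexes were followed here in optic nerves of mice in which OLs cannot make fatty acids de novo. Members were chosen by gene name alone. They were genes whose name starts with Ndufa, Ndufb, Ndufc, Ndufs, Ndufv, Uqcr, Cox4, Cox5, Cox6, Cox7, Cox8 or Atp5, the 4 Sdh genes, Cyc1, and the protein-coding genes of the mitochondrial genome, with a mean of at least 1 FPKM over all samples. FPKM is the number of sequenced fragments scaled for the length of the gene and the size of the library. Of 22880 genes, 106 matched by name and 102 passed the minimum, of which 89 are nuclear and 13 are mitochondrial. The 4 matches under the minimum were Cox8b, Cox6a2, Cox7b2 and Cox8c, with Cox8b just outside at 0.856 FPKM, and Ndufaf6 lay just inside at 1.05 FPKM. Of the 89 nuclear members, 78 are subunits of the complexes, and the other 11 share only the name. These are the complex I assembly factors Ndufaf1 to Ndufaf7, Atp5s, Atp5sl, Cox7a2l and Ndufa4l2.

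Optic nerves were taken at postnatal day 14 (P14) from 4 control mice of the genotype FASN lox/lox, which carry the floxed Fasn alleles and no Cre, and from 3 mutant mice of the genotype olig2cre FASN lox/lox. All mice were on a C57Bl/6 background, with the floxed line backcrossed from a mixed origin. The 2 nerves of a mouse made 1 sample. In the mutant, Cre driven by Olig2 regulatory elements removes Fasn, which encodes fatty acid synthase, in the OL lineage, whereas astrocytes, microglia, vessels and meninges of the nerve mostly lie outside that lineage. Polyadenylated RNA of the whole nerve was sequenced, so that fewer cells of a type and less RNA per cell cannot be told apart.

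Complexes I to IV form the respiratory chain. Complex I (NADH dehydrogenase) and complex II (succinate dehydrogenase) feed electrons into the chain, complex III (the cytochrome bc1 complex) passes them to cytochrome c, complex IV (cytochrome c oxidase) passes them to oxygen, and ATP synthase uses the resulting proton gradient. All but complex II contain subunits from both genomes, since the mitochondrial DNA still encodes 13 of their core proteins and the nucleus encodes the rest. OLs are known to rely on oxidative phosphorylation during differentiation and to lean on glycolysis once myelination is complete.

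The promoters that follow belong to the single member past the threshold of the test below, Ndufaf2, and to the 3 genes Atp5g1, Atp5g2 and Atp5g3, which encode the same mature c subunit of ATP synthase and whose fold changes are set side by side below. Each is the RefSeq sequence of 250 bases before and 50 bases after the listed start site on GRCm38.p6, read 5′ to 3′ on the strand of the gene. Capitals mark a match, on either strand, to the core of the site of NRF1, a transcription factor of many respiratory chain genes. This core is GCGC, then A and any base, then GCGC.
Ndufaf2, minus strand of chr13:108158576-108158875: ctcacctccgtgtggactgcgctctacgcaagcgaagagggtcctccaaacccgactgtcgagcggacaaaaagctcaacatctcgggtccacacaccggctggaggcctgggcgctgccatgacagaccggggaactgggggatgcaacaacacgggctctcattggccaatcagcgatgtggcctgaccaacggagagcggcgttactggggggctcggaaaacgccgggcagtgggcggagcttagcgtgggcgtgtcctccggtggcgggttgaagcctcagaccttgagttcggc
Atp5g1, minus strand of chr11:96075582-96075881: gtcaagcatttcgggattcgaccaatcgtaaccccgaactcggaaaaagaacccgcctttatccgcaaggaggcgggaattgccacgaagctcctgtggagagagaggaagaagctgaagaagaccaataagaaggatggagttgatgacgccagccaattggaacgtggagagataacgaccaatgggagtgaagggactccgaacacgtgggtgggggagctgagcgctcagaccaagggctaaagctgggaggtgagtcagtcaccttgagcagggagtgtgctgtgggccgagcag
Atp5g2, minus strand of chr15:102670998-102671297: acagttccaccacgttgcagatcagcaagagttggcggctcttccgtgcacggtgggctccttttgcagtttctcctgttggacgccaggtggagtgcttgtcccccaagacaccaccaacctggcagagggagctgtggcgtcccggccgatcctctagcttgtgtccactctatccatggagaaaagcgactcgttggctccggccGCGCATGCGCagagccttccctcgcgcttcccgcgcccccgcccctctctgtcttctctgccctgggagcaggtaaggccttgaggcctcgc
Atp5g3, minus strand of chr2:73911277-73911576: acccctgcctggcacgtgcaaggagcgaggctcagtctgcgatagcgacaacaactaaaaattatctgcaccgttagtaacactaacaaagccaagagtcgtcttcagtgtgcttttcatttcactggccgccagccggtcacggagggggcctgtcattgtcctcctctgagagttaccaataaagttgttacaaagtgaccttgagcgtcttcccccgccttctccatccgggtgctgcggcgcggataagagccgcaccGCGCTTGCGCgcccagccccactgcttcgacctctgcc

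The start site listed for Atp5g2 lies 1305 bases inside the gene as the deposited table gives it, so its window does not hold the 5′ end of that annotation (102672352), whereas the other 3 windows do. The Atp5g2 window held the NRF1 letters from base -42 before the start site, where the match is a palindrome and reads the same on both strands. The Atp5g3 window held them on the strand opposite to the gene, from base 13 after the start site. Neither the Ndufaf2 window nor the Atp5g1 window held them. The same windows were searched on both strands for CCGGAAG, an ETS site of the kind bound by GABPA, and for AAGATGGCG, a YY1 site, and these 4 windows held neither. A promoter was listed for 74 of the 89 nuclear members, and for 9 of the 74 the window did not hold the 5′ end given in the table. Of these 74 members, 19 held the NRF1 letters (25.7%, against 5.19% of the 27025 genes with a promoter), 17 held the ETS letters (23.0%, against 9.93%) and 8 held the YY1 letters (10.8%, against 1.64%). In all, 38 of the 74 held at least 1 of the 3. The 3 patterns can overlap, a match in letters is not a measured site, and no match says only that the letters are absent from these windows.

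Fasn served as a check of the labels, and its FPKM was 169 to 228 in control nerves and 49.0 to 69.3 in mutant nerves (log2 fold change -1.86, adjusted p = 0.00312). Total depth was estimated from the steps of the normalized counts. It ran from 31314433 to 43462575 reads per sample in control and from 27452222 to 35765950 in mutant nerves. Differences were tested with limma-trend on log2(FPKM + 0.5) across the 13866 genes with at least 0.5 FPKM in at least 3 samples, with Benjamini-Hochberg adjustment over all of them and a threshold of 0.05. All 102 members were tested. Across all genes, 363 passed (2.62%), with 175 higher and 188 lower in the mutant, a split that was 102 higher and 266 lower on the normalized counts of the authors and 124 higher and 215 lower after scaling by the median of ratios. OL markers fell in the mutant nerves for 2 of 9 genes tested (Mag and Cnp, median of the 9 log2 fold changes -0.32) and OL progenitor markers for 3 of 6 (Cspg4, Gpr17 and Vcan, median -0.32), whereas 3 of 7 astrocyte markers rose (Slc1a2, Aldh1l1 and Gja1, median 0.45). The summed FPKM of the OL markers was 57530 to 65260 in control and 42150 to 54040 in mutant nerves, and that of the astrocyte markers was 2891 to 3306 and 3611 to 4477. No marker of microglia, endothelial cells, pericytes and smooth muscle, meningeal fibroblasts, neurons, red blood cells or skeletal muscle passed. These calls turned with the replicate block, which pairs samples of the same number and with which 8.36% of all genes passed. With it the calls of Mag and Cnp were lost (limma adjusted p = 0.0726 and 0.0605), a further astrocyte marker rose (Slc1a3), and 11 of 45 markers of the other cell types rose, among them 5 of 7 of meningeal fibroblasts (Col1a1, Col1a2, Col3a1, Dcn and Slc6a13), 2 of 9 of pericytes and smooth muscle (Pdgfrb and Vtn) and 2 of 7 of endothelial cells (Cdh5 and Flt1). The OL marker Ugt8a lay the other way from Mag and Cnp, at 773.9 to 899.6 FPKM in control and 905.6 to 1222 FPKM in mutant nerves, and did not pass (log2 fold change 0.29, adjusted p = 0.152). Among the OL progenitor markers, Bmp4 (0.16) and Ptprz1 (0.08) lay the other way from Cspg4, Gpr17 and Vcan, and Pdgfra gave -0.14. In Bmp4, Ptprz1 and Pdgfra the groups overlapped, and none of them passed (limma adjusted p = 0.508, 0.736 and 0.537). Mutant sample 2 stood apart by its skeletal muscle RNA and control sample 2 by its red blood cell RNA. Without mutant sample 2, 2 nuclear members passed (Ndufaf2 and Atp5g2), without control sample 2 none did, and no mitochondrial member passed in either fit. The number of all genes that passed also moved, from 6 to 909 over the fits with 1 sample left out. For 1 value in 4 and 3 mice, the smallest two-sided p of an exact permutation test is 0.0571.

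Nuclear transcripts of oxidative phosphorylation lay close to the control level in mutant nerves. Of the 89 nuclear members, 1 passed the threshold, lower in the mutant (1.12%, against 2.62% of all genes tested in either direction and 1.36% lower), and none of the 78 subunits did. At an unadjusted p under 0.05 there were 4 nuclear members (4.49%, against 24.4% of all genes), and control and mutant samples did not overlap in 5 (5.62%, against 21.1%). The median log2 fold change of the 89 was 0.0044, with quartiles of -0.04 and 0.06, whereas the quartiles over all genes were -0.08 and 0.20. For 72 of the 89 the 95% confidence interval of the fold change lay wholly within 1.25-fold of no difference (80.9%, against 35.97% of all genes), and among the 78 subunits it did so for 67. The intervals of the nuclear members were also narrower, with a median half-width of 0.17 against 0.24 on the log2 scale. Summed over the 89, controls 1 to 4 held 7099, 7603, 7460 and 7253 FPKM, and mutants 1 to 3 held 7600, 7078 and 7676 FPKM. The highest and the lowest of these 7 sums are both from mutant nerves, so the groups overlap entirely.

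**Figure D1:**
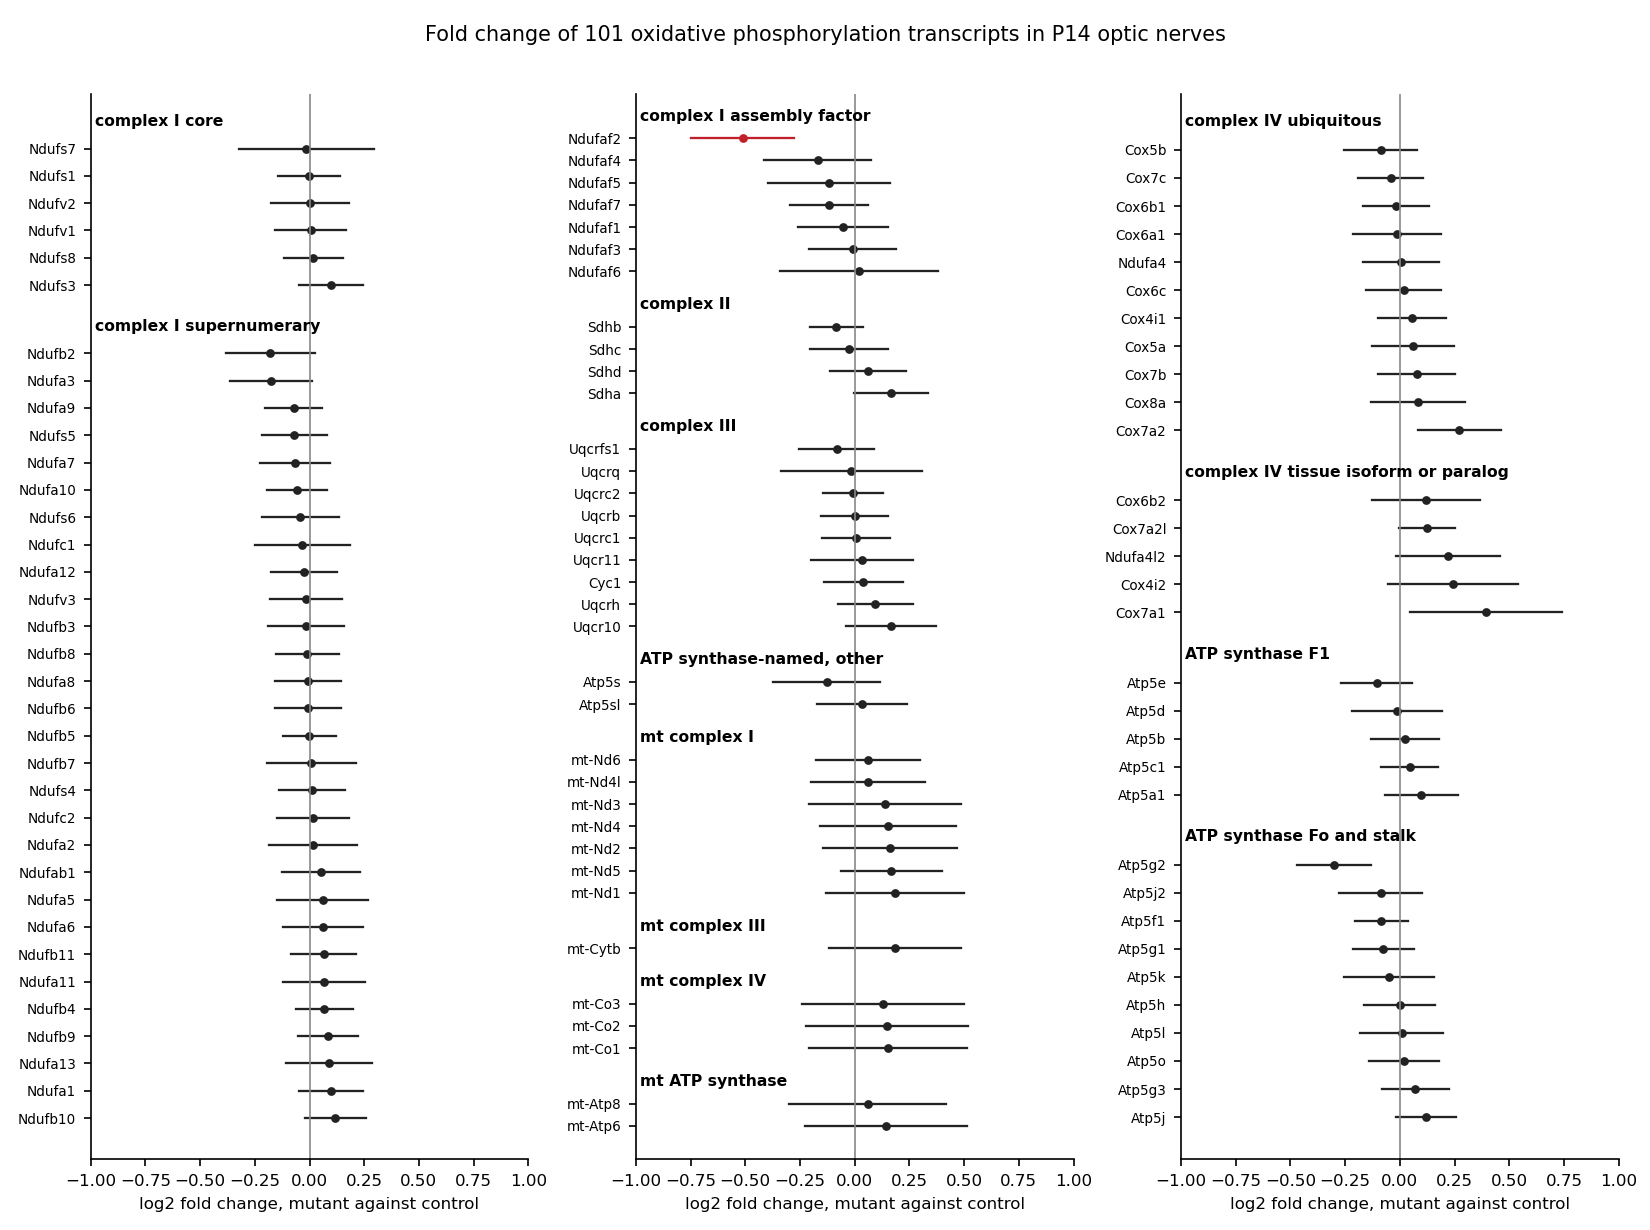
Log2 fold change of mutant against control for 101 of the 102 members (points) with its 95% confidence interval (lines), on the log2(FPKM + 0.5) scale, grouped by complex. Ndufaf2 at -0.51 is drawn in red as the only member past the threshold, and the 13 mitochondrial transcripts (names starting with mt-) lie between 0.06 and 0.19 on the FPKM scale used here, with intervals that include 0.

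Complex I is built from a core that carries out the electron transfer and proton pumping and from supernumerary subunits around it. None of its 36 nuclear subunits passed, the median log2 fold change was 0.0015, and 33 had an interval within 1.25-fold. The least abundant of the 7 nuclear core subunits was Ndufs8 at 39.6 FPKM.

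Among the 29 supernumerary subunits of complex I, 15 had a lower and 14 a higher fitted value in mutant nerves. The lowest values were those of Ndufb2 at -0.18 (interval -0.38 to 0.02, adjusted p = 0.253) and Ndufa3 at -0.17 (interval -0.36 to 0.01, adjusted p = 0.233). Ndufa3 had 126.3, 142.9, 131.8 and 113.4 FPKM in control and 107.9, 113.0 and 120.0 FPKM in mutant nerves, so that only control sample 4 fell among the mutant values. Ndufb2 overlaps Braf on the other strand, and the use of strand in counting is not given in the sources used here. It was also the least abundant complex I subunit at 11.5 FPKM. Ndufab1 is the mitochondrial acyl carrier protein, which sits in complex I and also carries the growing chain in mitochondrial fatty acid synthesis, a pathway apart from FASN. Its FPKM was 23.1, 26.0, 25.5 and 23.9 in control and 25.8, 23.2 and 27.7 in mutant nerves. The groups overlapped, with a log2 fold change of 0.05 and an interval from -0.13 to 0.23.

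The assembly factors of complex I, which chaperone its modules and are not part of the finished enzyme, included the single call. Ndufaf2, which joins a late intermediate of complex I, fell in mutant nerves. The gene lies on the minus strand of chromosome 13 of GRCm38 from 108052590 to 108158625, where the annotation lists no overlapping gene. It stood at 25.7, 24.3, 22.8 and 18.7 FPKM in the 4 controls, in the order of their numbers, against 15.1, 16.4 and 16.0 FPKM in the 3 mutants. All mutant nerves lay below all control nerves, with control sample 4 the nearest to them. The means were 22.9 ± 3.02 (SD, n = 4 mice) and 15.8 ± 0.653 FPKM (SD, n = 3 mice), resting on 298 to 756 reads per sample. The log2 fold change was -0.51 (standard error 0.105, interval -0.75 to -0.28, adjusted p = 0.0437 by limma).

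The call for Ndufaf2 was lost in most fits with a sample left out, although its log2 fold change stayed between -0.60 and -0.455. In these fits 6 to 909 of all genes passed. Without control sample 1, 2 or 3 its log2 fold change was -0.455, -0.48 or -0.51 and its limma adjusted p was 0.0855, 0.112 or 0.129. Without mutant sample 1 or 3 the log2 fold change was -0.48 or -0.52 and the adjusted p was 0.0892 or 0.110. It passed without control sample 4 and without mutant sample 2, and it did not pass when no low genes were removed before the adjustment (adjusted p = 0.0949). The sign was negative under each of the 15 other settings tried.

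The other 6 factors caught by name, Ndufaf1 and Ndufaf3 to Ndufaf7, did not pass. Their fitted values ran from -0.17 (Ndufaf4, interval -0.41 to 0.07) to 0.02 (Ndufaf6), with 5 of the 6 below 0. All 6 were below 0 after scaling by the median of ratios, on the normalized counts and without control sample 1. Ndufaf3 turned positive beside Ndufaf6 with the replicate block and without control sample 2 or 4. Without mutant sample 3 it did so in place of Ndufaf6. With Ndufaf2 included, the median of the 7 was -0.12. The summed FPKM of the 7 was 65.8, 67.5, 63.7 and 60.0 in control and 54.2, 53.3 and 57.4 in mutant nerves, and these sums did not overlap. Ndufaf2 was the most abundant of the 7 and carries most of that difference. A wider list of assembly factors for all complexes held 41 genes, of which 40 were tested and none passed, with a median of 0.0053. At an unadjusted p under 0.05 there were 3 of these genes (7.5%, against 24.4% of all genes).

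Complex II, the only complex with no mitochondrial subunit, also belongs to the citric acid cycle. None of its 4 genes passed. Sdha, the flavoprotein that oxidizes succinate, had 224.9, 198.9, 222.8 and 221.9 FPKM in control and 254.3, 222.3 and 254.9 FPKM in mutant nerves. Mutant samples 1 and 3 lay above all controls and mutant sample 2 lay among them (log2 fold change 0.17, interval -0.0033 to 0.34, adjusted p = 0.212). The iron-sulfur subunit Sdhb had 63.6, 67.4, 66.2 and 67.2 FPKM in control and 64.1, 62.2 and 60.8 FPKM in mutant nerves, with a log2 fold change of -0.08 (interval -0.20 to 0.04). The membrane anchors Sdhc and Sdhd stood at 62.1 and 56.3 FPKM over all samples, with log2 fold changes of -0.03 and 0.06. Sdha was thus 4.06 times as abundant per length as Sdhd, although the assembled enzyme holds equal copies of each.

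Complex III also lay close to the control level. None of its 9 nuclear genes passed, the median was 0.0061, and 7 had an interval within 1.25-fold. Levels ran from 41.1 FPKM (Uqcrq) to 179.5 FPKM (Uqcrh, the hinge protein). Uqcrq, a small subunit close to cytochrome b, varied widely in both groups, with 33.6, 39.6, 43.2 and 48.7 FPKM in control and 49.5, 35.6 and 37.5 FPKM in mutant nerves. Its interval accordingly ran from -0.34 to 0.31. Cyc1, which encodes cytochrome c1, had 56.6, 60.2, 58.9 and 61.0 FPKM in control and 66.0, 53.2 and 64.0 FPKM in mutant nerves. The mutant values spanned the controls (log2 fold change 0.04, interval -0.14 to 0.22).

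In complex IV, the 11 subunits expressed in all tissues had a median log2 fold change of 0.02, and 10 had an interval within 1.25-fold. Cox4i1, the most abundant, had 350.5, 379.8, 381.8 and 383.3 FPKM in control and 387.2, 364.8 and 414.8 FPKM in mutant nerves, and it overlaps Emc8 on the other strand and Gm20388 on its own. The groups overlapped, with an interval from -0.10 to 0.21. Cox5a, the least abundant at 59.1 FPKM, gave 0.06 (interval -0.13 to 0.25).

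Cox7a2, the form of subunit VIIa found outside muscle, was the only one of the 11 whose groups did not overlap. Its FPKM was 51.5, 56.8, 54.9 and 63.4 in control and 64.5, 66.0 and 74.7 in mutant nerves. Every mutant nerve lay above every control nerve, with control sample 4 only just below mutant sample 1. The log2 fold change was 0.27 (standard error 0.0839, interval 0.08 to 0.46), and it did not pass the threshold (adjusted p = 0.105 by limma). With the replicate number of the labels as a block, a fit in which control sample 4 adds nothing to the fold change, the log2 fold change was 0.33 and the adjusted p was 0.0465, when 8.36% of all genes passed. Cox7a2l, a relative that joins complexes III and IV into supercomplexes, had 100.0, 106.6, 104.8 and 98.0 FPKM in control and 109.0, 110.1 and 115.1 FPKM in mutant nerves. These groups did not overlap either, although the difference was small (log2 fold change 0.12, interval -0.0054 to 0.25, adjusted p = 0.221).

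**Figure D2:**
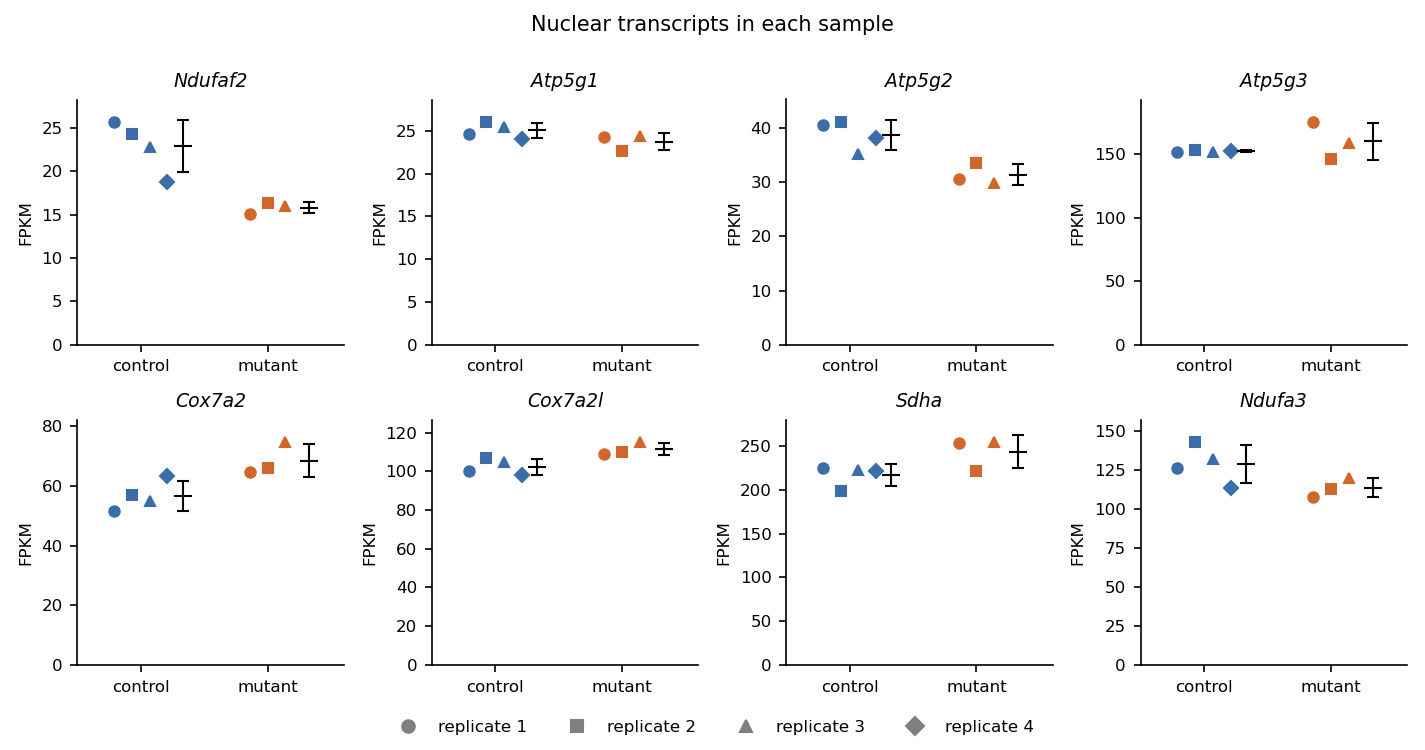
FPKM of 8 nuclear members in each sample, with 4 control samples (blue) and 3 mutant samples (orange), a shape for each replicate number, and the mean ± SD of each group in black. Mutant values of Ndufaf2 and Atp5g2 lie below, and those of Cox7a2 and Cox7a2l above, all control values, and only Ndufaf2 passed the threshold.

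Several complex IV subunits have a second form with a narrower tissue range, and in the nerve each of these was scarce beside its ubiquitous partner. None of the minor forms passed. Cox7a1, the heart and skeletal muscle form of subunit VIIa, stood at 8.40% ± 1.26 of Cox7a2 in control (SD, n = 4) and 9.49% ± 2.53 in mutant nerves (SD, n = 3). Cox4i2, a form known from lung and from oxygen-sensing cells, stood at 0.422% ± 0.0770 and 0.498% ± 0.0291 of Cox4i1. Cox6b2, the testis form, stood at 11.3% ± 0.922 and 12.6% ± 2.92 of Cox6b1. Every one of these ratios overlapped between the groups.

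The fitted levels of Cox7a1, Cox4i2 and Cox6b2 were above the control level, and that of Cox6b2 turned to -0.02 without mutant sample 1. Cox7a1 had 4.82, 3.85, 5.18 and 5.09 FPKM in control and 7.99, 5.13 and 6.20 FPKM in mutant nerves. Mutant sample 1 was highest and mutant sample 2 lay among the controls (log2 fold change 0.39, interval 0.05 to 0.74, adjusted p = 0.161). Cox4i2 had 1.83, 1.33, 1.67 and 1.44 FPKM against 1.92, 1.72 and 2.20 FPKM (0.24, interval -0.05 to 0.54, adjusted p = 0.287), and only 33.0 to 58.0 reads per sample stand behind it. Cox6b2 gave 0.12 (interval -0.13 to 0.37), with 27.9 FPKM in mutant sample 1 against 19.7 to 22.6 FPKM in the other 6 samples. In each of these the groups overlapped. Ndufa4l2, the paralog of the complex IV subunit Ndufa4 known to rise in low oxygen, had 2.98, 3.32, 3.07 and 2.96 FPKM against 3.21, 4.06 and 3.79 FPKM (0.22, interval -0.02 to 0.46, adjusted p = 0.236), and it overlaps Shmt2 on the other strand. It stood at 1.73% ± 0.0857 of Ndufa4 in control and 2.07% ± 0.297 in mutant nerves, while Ndufa4 itself gave 0.0044 (interval -0.17 to 0.18).

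Markers of other cells were also higher in some of these samples. The summed FPKM of 7 meningeal fibroblast markers was 1898 to 2666 in control and 4822, 2528 and 2896 in mutant samples 1 to 3, that of 9 pericyte and smooth muscle markers was 289.2 to 394.4 and 550.9, 383.5 and 489.2, and that of 7 endothelial markers was 148.6 to 174.6 and 196.3, 206.2 and 179.3. No defining marker of these cells was at 0, and their part in the levels of the minor forms was not tested. Skeletal muscle transcripts were high in mutant sample 2 alone, where Mylpf reached 24.9 FPKM, Tnnt3 17.9, Acta1 15.1 and Ckm 7.62, and the summed FPKM of 11 muscle markers was 80.8 against 3.41 to 7.28 in the other 6 samples. The muscle forms split over the samples. Cox8b, the muscle form of subunit VIII, was highest in mutant sample 2, with 0.765, 0.704, 0.763 and 0.353 FPKM in control and 1.08, 1.42 and 0.905 FPKM in mutant nerves, whereas Cox7a1 was highest in mutant sample 1. Cox6a2, the muscle form of subunit VIa, was highest in mutant sample 3 at 1.11 FPKM, against 0.581 to 0.874 FPKM in the other 6 samples. Cox8b and Cox6a2 rest on 4.00 to 16.0 and 11.99 to 25.01 reads per sample, lie under the minimum for members and did not pass (adjusted p = 0.137 and 0.981). Their ubiquitous partners Cox8a and Cox6a1 gave 0.08 (interval -0.13 to 0.30) and -0.01 (interval -0.21 to 0.19).

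**Figure D3:**
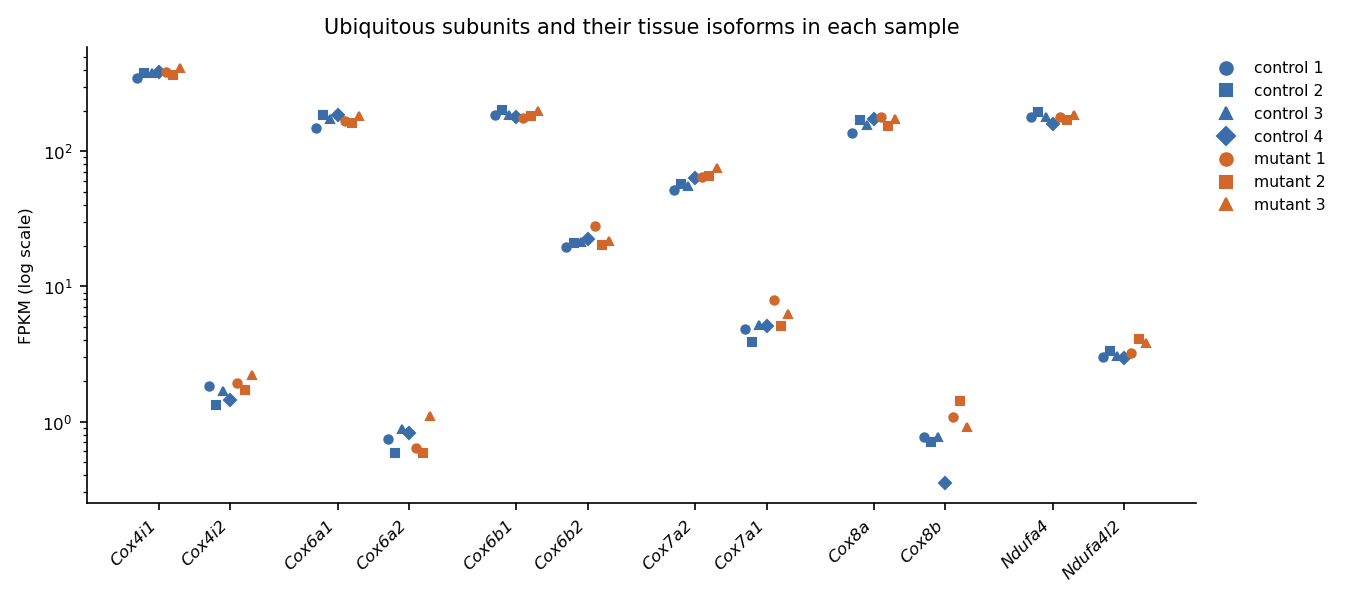
FPKM on a log axis of 6 ubiquitous subunits, each with its minor form to the right, in 4 control samples (blue) and 3 mutant samples (orange), a shape for each replicate number. The minor forms lie well below their partners in all 7 samples, from Cox8b at 0.415% of Cox8a to Cox6b2 at 11.3% of Cox6b1 in control nerves.

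ATP synthase has a soluble catalytic head, F1, and a membrane part, Fo, with a ring of c subunits that turns as protons pass. None of its 15 nuclear subunits passed, the median was -0.00052, and 14 had an interval within 1.25-fold. The catalytic subunit Atp5b was the most abundant nuclear member of all, with 526.4, 500.9, 515.7 and 507.0 FPKM in control and 550.9, 480.2 and 533.7 FPKM in mutant nerves. The mutant values spanned the controls (log2 fold change 0.02, interval -0.13 to 0.18). All 5 genes of F1 had an interval within 1.25-fold.

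The single nuclear ATP synthase gene with an interval beyond 1.25-fold was Atp5g2, whose promoter is shown above. The protein made from Atp5g1, Atp5g2 and Atp5g3 is known to be the same after the import sequence is removed, so the 3 genes supply a shared pool. Atp5g2 had 40.7, 41.2, 35.2 and 38.2 FPKM in control and 30.7, 33.6 and 29.95 FPKM in mutant nerves. All mutant nerves lay below all controls, and the difference missed the threshold (log2 fold change -0.30, standard error 0.0747, interval -0.47 to -0.13, adjusted p = 0.0675 by limma). Without mutant sample 2 it passed, at -0.35 with an adjusted p of 0.0470 by limma, and over all settings the adjusted p ran from 0.0470 to 0.174. Over the fits with 1 sample left out, 6 to 909 of all genes passed.

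The other c subunit genes gave smaller differences. Atp5g3, the main source, had 151.8, 153.7, 152.0 and 152.4 FPKM in control and 175.8, 146.7 and 159.4 FPKM in mutant nerves (log2 fold change 0.07, interval -0.08 to 0.23), and Atp5g1 had 24.7, 26.1, 25.5 and 24.1 against 24.3, 22.6 and 24.4 FPKM (-0.08, interval -0.21 to 0.06). The sum of the 3 was 216 ± 3.58 FPKM in control (SD, n = 4) and 216 ± 14.03 FPKM in mutant nerves (SD, n = 3). Within that sum, the share of Atp5g2 was 18.7%, 18.6%, 16.5% and 17.8% in control and 13.3%, 16.6% and 14.01% in mutant nerves, where control sample 3 and mutant sample 2 met. The share of Atp5g3 was 69.9%, 69.6%, 71.5% and 71.0% in control and 76.2%, 72.3% and 74.6% in mutant nerves, which did not overlap. An exact permutation test of either share cannot reach 0.05 with these numbers of mice, and the 3 genes have near-identical coding ends, so reads that fit several of them were divided by an estimate in the authors' counting.

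The 13 mitochondrial transcripts together took several times as many reads as the 89 nuclear members, although the least abundant of them, mt-Nd6 at 34.5 FPKM, lay below the nuclear median of 62.1 FPKM. Of the reads of controls 1 to 4 they took 4.33%, 5.80%, 4.63% and 4.34%, and of those of mutants 1 to 3 they took 4.85%, 5.07% and 5.95%, whereas the 89 nuclear members took 0.588% to 0.641% in any sample. None of the 13 passed the threshold, none reached an unadjusted p under 0.05 (24.4% of all genes did), and in none were the groups apart (21.1% of all genes). All 13 log2 fold changes were positive, from 0.06 to 0.19, but mt-Atp8, mt-Nd4l and mt-Nd6 turned negative on the authors' normalized counts and without mutant sample 3, and mt-Atp8 did so without control sample 4 and with the replicate block. The median of the 13 was 0.15, against 0.05 over all genes. These 13 values are not independent, since 12 of them come from 1 long precursor of the heavy strand. The median half-width of their intervals was 0.32, against 0.17 for the nuclear members, and in 1 of the 13 (mt-Nd6) the interval lay within 1.25-fold of no difference.

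**Figure D4:**
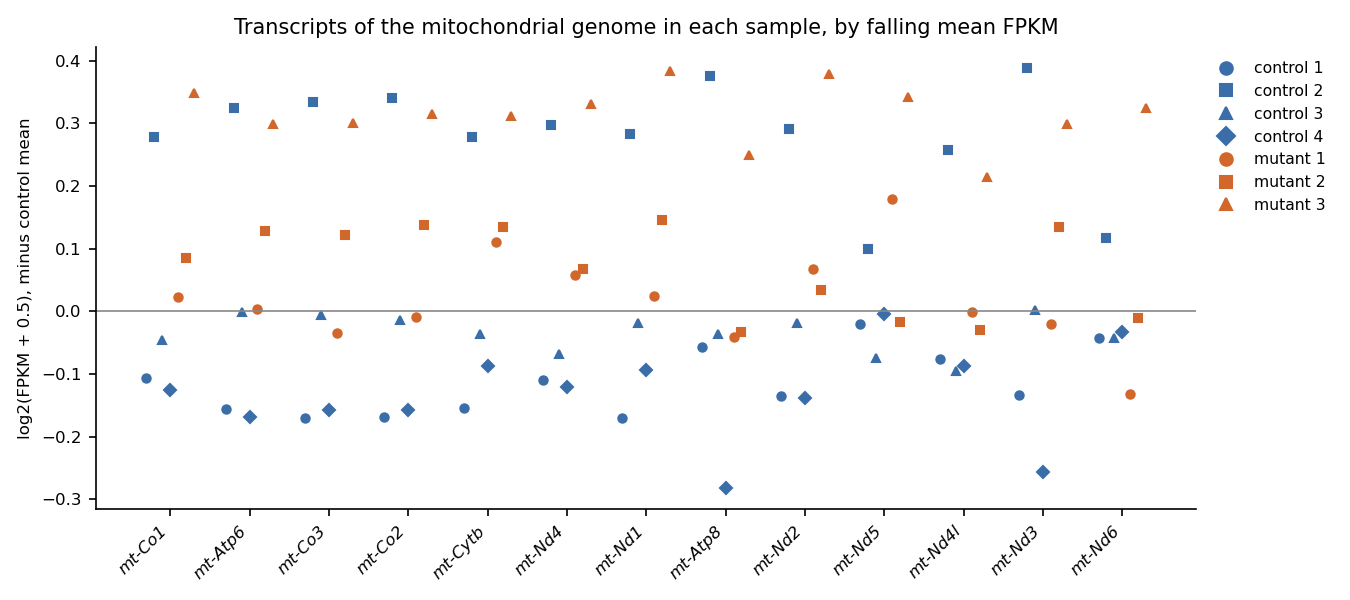
Level of the 13 mitochondrial transcripts in each sample, as log2(FPKM + 0.5) minus the mean of the 4 control samples, ordered by falling mean FPKM, with control samples in blue and mutant samples in orange. Control sample 2 is the highest control and mutant sample 3 the highest mutant for 13 of 13 transcripts, and the groups overlap in each.

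The 3 cytochrome c oxidase genes and mt-Atp6 were the most abundant. mt-Co1, the catalytic subunit of the oxidase, had 8615, 11240, 8980 and 8494 FPKM in control and 9422, 9833 and 11800 FPKM in mutant nerves (log2 fold change 0.15, interval -0.21 to 0.51). mt-Co2 had 5899, 8399, 6564 and 5945 against 6589, 7296 and 8249 FPKM (0.15, interval -0.22 to 0.52). mt-Co3 had 5995, 8507, 6723 and 6049 against 6585, 7344 and 8315 FPKM (0.13, interval -0.24 to 0.50). In all 3 oxidase genes the highest control exceeded mutant samples 1 and 2, and control sample 2 stood above the other controls.

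The ATP synthase genes mt-Atp8 and mt-Atp6 share 43 bases of the plus strand at chrMT:7927-7969, in which the end of the first is read in another frame from the start of the second. They are shown because a read inside them fits both genes, with the start codon of mt-Atp6 in capitals, as in GRCm38 and the GENCODE transcripts.
mt-Atp8 and mt-Atp6: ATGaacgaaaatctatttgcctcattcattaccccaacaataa
mt-Atp6 had 7379, 10300, 8217 and 7315 FPKM in control and 8242, 8988 and 10110 FPKM in mutant nerves (0.14, interval -0.23 to 0.51). mt-Atp8 had 2511, 3387, 2547 and 2149 against 2540, 2554 and 3106 FPKM (0.06, interval -0.30 to 0.42). Control sample 2 was the highest of all 7 samples in both. mt-Atp6 and mt-Co3 also meet in 1 base, and mt-Nd4l and mt-Nd4 share 7 bases.

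The complex I and complex III genes of the mitochondrial DNA lay below these 4, again with control sample 2 and mutant sample 3 the highest of their groups. mt-Cytb, the cytochrome b of complex III, had 3659, 4942, 3973 and 3834 FPKM in control and 4399, 4470 and 5057 FPKM in mutant nerves (0.19, interval -0.12 to 0.49, adjusted p = 0.422), the highest fitted value of the 13. Among the complex I genes, mt-Nd1 had 2511, 3440, 2791 and 2649 against 2874, 3128 and 3688 FPKM (0.18, interval -0.13 to 0.50). mt-Nd4 had 2918, 3868, 3001 and 2895 against 3276, 3297 and 3958 FPKM (0.15, interval -0.16 to 0.46). Without control sample 2, the mutant values of mt-Nd1 and mt-Nd4 would lie above every remaining control. The same holds for mt-Cytb, mt-Nd2, mt-Nd4l, mt-Co1, mt-Co2 and mt-Atp6, but not for mt-Co3, mt-Atp8, mt-Nd3, mt-Nd5 or mt-Nd6. Control sample 2 is the highest control in each and was singled out after its values had been seen. How many of all genes would separate without it was not counted. With all 7 samples, 21.1% of all genes were apart and none of the 13 mitochondrial transcripts was.

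Of the other complex I genes, mt-Nd2 had 1511, 2030, 1638 and 1507 against 1739, 1699 and 2158 FPKM (0.16, interval -0.14 to 0.47). mt-Nd5 had 1483, 1612, 1429 and 1500 against 1703, 1487 and 1907 FPKM (0.17, interval -0.06 to 0.40). The small subunits mt-Nd3 and mt-Nd4l gave 0.14 (interval -0.21 to 0.49) and 0.06 (interval -0.20 to 0.32), at 1388 and 1587 FPKM over all samples. mt-Nd5 spread less over the controls than the genes named before it.

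mt-Nd6 is the only protein gene on the light strand, and its RNA is known to lack a stable poly(A) tail, which the library preparation selects. It had 32.7, 36.6, 32.7 and 32.9 FPKM in control and 30.7, 33.5 and 42.3 FPKM in mutant nerves (0.06, interval -0.18 to 0.30). Control sample 2 and mutant sample 3 were again the highest of their groups, so that the pair of samples stood out on both strands. The mean of mt-Nd6 was 34.5 FPKM, whereas the 12 genes of the other strand ran from 1388 FPKM (mt-Nd3) to 9769 FPKM (mt-Co1), a range of 7.04-fold. It overlaps mt-Nd5 on the opposite strand, and the use of strand in counting is not given.

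Nuclear and mitochondrial transcripts spread differently over the samples. Relative to the control mean, the median log2 level of the 13 mitochondrial transcripts was -0.13, 0.29, -0.04 and -0.13 in control and 0.0036, 0.08 and 0.31 in mutant nerves, whereas that of the 89 nuclear members was -0.05, 0.07, 0.02 and -0.02 in control and 0.04, -0.08 and 0.04 in mutant nerves. Mutant sample 2 thus lay above the control mean for the mitochondrial and below it for the nuclear transcripts. In mutant sample 2, 6 of the 89 nuclear members had their highest mutant value and 25 their lowest value of all 7 samples, against 30 with their lowest value in control sample 1. Control sample 2 was also the sample with the most red blood cell RNA, with a summed FPKM of 12730 for 5 markers against 2851 to 5595 in the other 6 samples, and mutant sample 3 the sample with the most neuronal RNA, with 75.3 for 7 markers against 43.7 to 57.5. The part of either in the mitochondrial levels was not tested. Without control sample 2 the median log2 fold change of the 13 was 0.25, without mutant sample 3 it was 0.06, and no mitochondrial transcript passed in either fit.

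**Figure D5:**
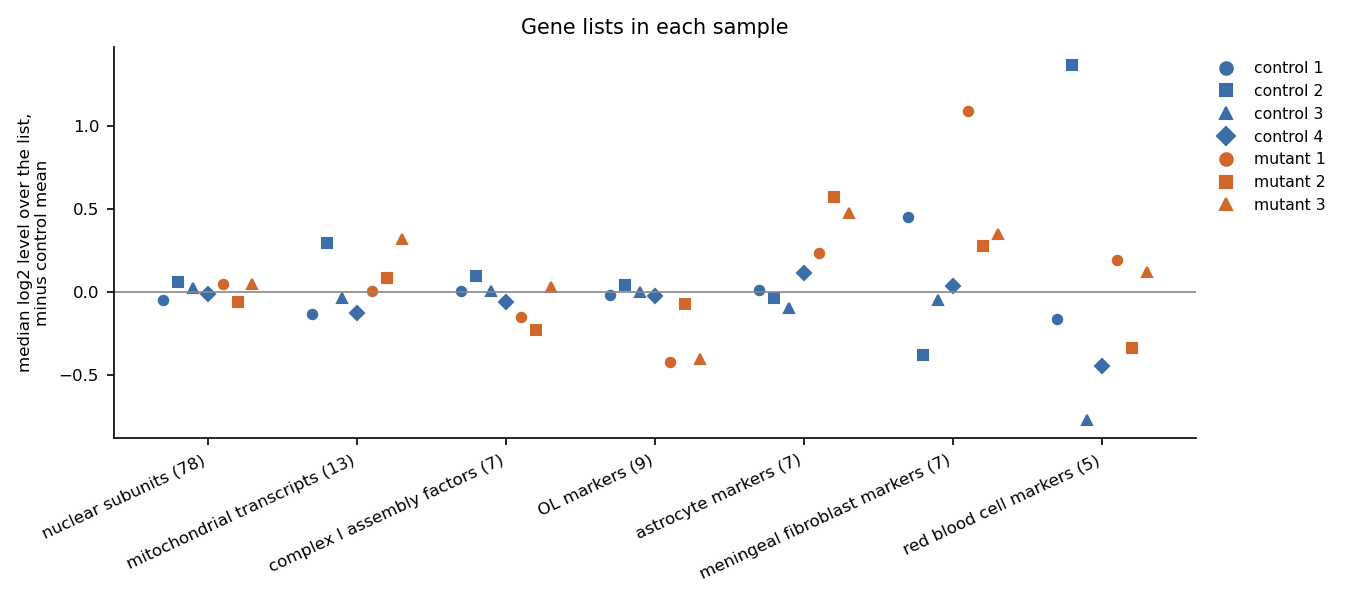
Median log2 level of each gene list in each sample, relative to the control mean, with the number of genes in brackets, for 4 control samples (blue) and 3 mutant samples (orange). The nuclear subunits stay close to 0 in all 7 samples, and the mitochondrial transcripts are highest in control sample 2 (0.29) and mutant sample 3 (0.31). OL and astrocyte markers lie apart between the groups, although OL markers in mutant sample 2 (-0.07) lie just below the lowest control (-0.02).

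Genes around the complexes were read from lists of the pathway. Cytochrome c, ubiquinone synthesis, the electron transfer flavoproteins and the carriers that exchange ATP, ADP and phosphate made up 24 genes. Of these, 23 were tested and none passed, with a median of 0.04. At an unadjusted p under 0.05 there were 2 (8.70%, against 24.4% of all genes). With the replicate block 2 of the 23 passed, Adck3 and Ckmt1 (limma adjusted p = 0.0369 and 0.0427), when 8.36% of all genes passed. Cytochrome c itself (Cycs) had 18.0, 19.0, 17.3 and 14.6 FPKM in control and 16.8, 16.0 and 18.5 FPKM in mutant nerves. Of 22 genes for the expression of mitochondrial DNA and for mitochondrial biogenesis, 21 were tested and 1 rose (4.76%, against 2.62% of all genes). The median of the 21 was 0.00013, and the transcription factor Tfam, which packs mitochondrial DNA, had 15.6, 15.1, 13.2 and 15.8 against 13.4, 14.9 and 14.8 FPKM.

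The gene that rose was Ppargc1a, the coactivator PGC-1α, which drives the transcription of many nuclear respiratory genes. It had 4.46, 3.70, 4.19 and 4.45 FPKM in control and 6.04, 5.73 and 7.21 FPKM in mutant nerves. All mutant nerves lay above all controls (log2 fold change 0.54, standard error 0.108, adjusted p = 0.0437 by limma). It kept its sign with each sample left out, from 0.45 to 0.60, and passed in 1 of these 7 fits, without mutant sample 2, with adjusted p-values of 0.0378 to 0.126. It did not pass when no low genes were removed (adjusted p = 0.0888). The factors that bind the motifs searched above, Nrf1, Gabpa and Yy1, did not pass, with log2 fold changes of 0.02, 0.22 and 0.07. In Nrf1 and Yy1 the groups overlapped. In Gabpa, which overlaps Atp5j on the other strand, they did not (interval 0.06 to 0.39, adjusted p = 0.116 by limma), as in 21.1% of all genes.

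The citric acid cycle and its entry through pyruvate dehydrogenase supply the electrons for complexes I and II. Of 22 genes tested, 1 rose and 1 fell (9.09%, against 2.62% of all genes), with a median of 0.08. At an unadjusted p under 0.05 there were 7 (31.8%, against 24.4%), and the groups did not overlap in 6 (27.3%, against 21.1%). With the replicate block 3 passed, Idh2 being the third (0.33 without the block, adjusted p = 0.0706 without and 0.0293 with it by limma), where 8.36% of all genes did. Suclg2, the subunit of succinyl-CoA ligase that uses GDP, had 18.5, 17.4, 18.1 and 18.2 FPKM in control and 29.0, 21.7 and 26.1 FPKM in mutant nerves (log2 fold change 0.48, adjusted p = 0.0405 by limma). Pdk3, a kinase that switches off pyruvate dehydrogenase, had 21.9, 22.6, 21.5 and 19.0 against 16.4, 16.2 and 14.7 FPKM (-0.42, adjusted p = 0.0349 by limma). In both genes the groups did not overlap. With each sample left out in turn, Suclg2 passed in 1 of 7 fits, without mutant sample 2, and Pdk3 in 2, without control sample 4 and without mutant sample 2, with adjusted p-values up to 0.120 for each, and neither changed sign. Without a filter on low genes the adjusted p was 0.0867 for Suclg2 and 0.0653 for Pdk3. In the same nerves 3 of 7 astrocyte markers rose and 2 of 9 OL markers fell, and the part of these cells in Ppargc1a, Suclg2, Pdk3 and Ndufaf2 was not tested.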

How the data were processed

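RNA-seq was carried out by the authors on P14 optic nerves of 4 control and 3 mutant mice, grouped and numbered by their labels. Reads were cleaned, aligned with STAR (2.5.1b) to GRCm38 with Ensembl annotation, and quantified with RSEM (1.2.22). The deposited table holds, for each sample, a normalized count (a signal that the authors made by dividing the RSEM estimate by a size factor) and an FPKM value, which the authors scaled by gene length and library size. FPKM values recomputed from the normalized counts differed by at most 0.284%. GC content is deposited as a fraction and was not used in any test. The authors' own fold changes, p-values, FDR values and clusters are in the same table and were not used.

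A count test had been planned if counts were deposited. The table holds normalized values only, so limma-trend (limma 3.58.1, R 4.3.3) was run on log2(FPKM + 0.5) with genotype as the only term, a scale that understates the change of low genes. The script was tested on simulated data. Low normalized counts come in steps, which gave the reads behind each value, and 71.9% to 79.3% of low values were whole within 0.02 reads. Intervals are those of the limma fit. Its p-values set the difference between the groups against the spread between mice, where the variance of each gene is moderated toward a trend over all genes. Replicates did not hold identical values.

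Samples of the same number deviated together (correlations of 0.168, 0.409 and 0.270 for the 3 pairs, against -0.353 to 0.205 for other pairs). The highest other value, for control sample 4 with mutant sample 1, exceeded the lowest of the 3. The labels do not say what a number marks. The numbers were taken to pair the samples in the replicate block alone, and the main fit leaves them out. The members and gene lists were chosen with earlier results of these data known. Genes were named by rule: members past the threshold, the 5 lowest and 5 highest by p, all mitochondrial genes, complex II, Cyc1, Ndufab1, isoform pairs, the extremes in level of each complex, and pathway and marker genes past the threshold. Ndufaf4, Ndufaf6, Ndufs8, Ndufa6, Cycs, Tfam, Nrf1, Gabpa, Yy1, Ugt8a, Bmp4, Ptprz1 and Pdgfra were added after their values had been seen. So were the muscle genes and the genes that pass only with the replicate block, and other markers are given as sums. 1 nuclear member enters the counts and medians but is not reported here by name. Promoters came from RefSeq and shared mitochondrial bases from GENCODE M21. Alternatives were other pseudocounts, filters and scalings, the normalized counts, a replicate block, and each sample left out.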

Additional observations from a re-analysis of the deposited data

Results flagged for a closer look

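Among the 43 single members that were followed, 6 had 1 control sample far from the other 3. The gap to its nearest neighbour, as a share of the range of the 4 controls, exceeded the 95% critical value of Dixon's test. Members outside these 43 are not listed here. Some of them also held such a gap, among them Ndufa6 (44.5 FPKM in control sample 1 against 52.4 to 53.8). Chance alone gives such a gap in about 1 in 20 groups of 4. Control sample 2 was the high sample for 3 mitochondrial transcripts, with a ratio of gap to range of 0.891 for mt-Nd4 (3868 FPKM against 2895 to 3001), 0.953 for mt-Nd4l (1855 against 1453 to 1472) and 0.949 for mt-Nd6 (36.6 against 32.7 to 32.9). In the same sample Sdha was low, with a ratio of 0.885 (198.9 FPKM against 221.9 to 224.9). Control sample 1 was low for Cox4i1, with a ratio of 0.893 (350.5 FPKM against 379.8 to 383.3). Control sample 4 was low for Cox8b, with a ratio of 0.851 (0.353 FPKM against 0.704 to 0.765), which rests on few reads.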

How the results depend on the processing

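The number of genes past the threshold moved with the processing. Across all genes it was 363, 95 with no filter on low values, 1159 with the replicate block, and 6 to 909 with each sample left out. Among the 89 nuclear members it was 1, 0 with no filter, 2 with the replicate block (Ndufaf2 and Cox7a2), and 0 to 2 with a sample left out. Among the 13 mitochondrial members it was 0 under all 15 alternatives. With no filter more genes enter the adjustment, and in the block control sample 4 adds nothing to a fold change. The replicate block changed no other call of a member. The median log2 fold change of the nuclear members was 0.0044 and moved to -0.0735 on the normalized counts, where the median of all genes shifted by -0.0731, and it was -0.01 to 0.05 with a sample left out. That of the mitochondrial members was 0.15 and ran from 0.06 to 0.25 over all alternatives. Of 643 values of 43 single members, 635 kept their sign where called and their side of the threshold, 6 of Ndufaf2 lost the call, and 2 gained it (Atp5g2 without mutant sample 2, Cox7a2 with the block). In 17 members not past the threshold the sign turned under some alternative, the largest having a log2 fold change of 0.12. The cause of these shifts was not tested. Depth limits the scarce members, since Ndufaf6 and Cox4i2 rest on under 60 reads per sample.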
